A study of Mus musculus with 12 samples.

Results

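The AP-1 genes described here are the 9 JUN, FOS and ATF/BATF family members Jun, Junb, Jund, Fos, Fosb, Fosl1, Fosl2, Atf3 and Batf, found by symbol among 49585 genes of the table. All 9 had a group mean of at least 1 normalized unit, as did 19017 genes in all, and each is described in all 12 libraries. The group was chosen by measured values. Junb was selected on its difference in the WT comparison, a mean of 1577 ± 213 normalized units (SD, n = 3) in wild-type (WT) lungs after ovalbumin against 712 ± 29.9 after saline, and Fosb was noted in the same comparison for 33.6 ± 10.4 against 76.9 ± 1.92. The WT comparison is therefore a description, with no test.

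Whole-lung RNA of C57BL/6 mice was sequenced in 12 libraries, 3 in each of the groups WT saline, WT ovalbumin, Has2+/- saline and Has2+/- ovalbumin. Has2 encodes hyaluronan synthase 2, which makes the matrix sugar hyaluronan, and Has2+/- animals are heterozygous for its loss. The labels do not say whether the loss is limited to a cell type. Ovalbumin (OVA), an egg protein, was given to both OVA groups. The design text names sensitization and the nasal route for the WT mice and stimulation alone for the Has2+/- mice, and the OVA titles give a time of 24 without a unit. Control groups received saline, and no age or sex is used here. Whether the 3 libraries of a group are 3 mice is not stated, and the p-values then rest on the spread of libraries, which may be technical. Library numbers are those of the deposited columns, with 1 to 3 for WT OVA, 4 to 6 for WT saline, 7 to 9 for Has2+/- OVA and 10 to 12 for Has2+/- saline.

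AP-1 is a dimer of basic leucine zipper (bZIP) proteins that binds short DNA sites in promoters and enhancers. JUN proteins pair with each other or with FOS proteins, whereas FOS proteins need a JUN partner. MAP kinases raise the transcription of several of these genes within minutes of a stimulus and phosphorylate their proteins. In the airway, AP-1 takes part in cytokine and matrix gene expression by lymphocytes, myeloid cells, epithelium and fibroblasts.

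Each table value is a gene count after the authors' quantile normalization, called a normalized unit below. Depth is unknown, because every library has the same sum of 6852201 units. Spearman correlations between libraries ran from 0.967 to 0.992 within groups and from 0.935 to 0.993 between groups, and WT OVA library 3 was closest to WT saline library 4 (0.981). The summed markers of squamous epithelium, a tissue of the upper airway and oesophagus, were between 23385 and 35987 units in libraries 3, 4, 6, 10 and 11 and between 10.2 and 1943 in the others. Markers of alveolar epithelium, which define lung, were high throughout, with sums between 104965 and 134859 units. Has2 itself stood at 5.72 ± 1.17 units in WT saline, 6.72 ± 3.39 in WT OVA, 7.75 ± 0.382 in Has2+/- saline and 7.89 ± 2.95 in Has2+/- OVA (SD, n = 3). Has2 was thus not lower in the libraries labelled Has2+/- (log2 difference 0.32, 95% interval -0.28 to 0.93, limma adjusted p = 0.684), so its level does not check the genotype labels, and Has2+/- below means the libraries labelled so.

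The promoter windows of Junb, Fosb, Fos and Jun, 4 of the 9 members, are printed here. They come from RefSeq on GRCm38.p6 and span 250 bases before to 50 bases after the annotated start, which is base 251 counted from 1 at the 5′ end. They lie at chr8:84978699-84978998 on the minus strand, chr7:19309996-19310295 on the minus strand, chr12:85473640-85473939 on the plus strand and chr4:95052173-95052472 on the minus strand. Capitals mark the matches to the searched motifs.
Junb: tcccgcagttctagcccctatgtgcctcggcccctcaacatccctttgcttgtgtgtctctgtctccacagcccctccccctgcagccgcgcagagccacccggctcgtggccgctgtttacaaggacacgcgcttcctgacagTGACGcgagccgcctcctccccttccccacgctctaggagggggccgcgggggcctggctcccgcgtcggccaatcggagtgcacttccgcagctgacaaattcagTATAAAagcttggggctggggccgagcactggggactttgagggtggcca
Fosb: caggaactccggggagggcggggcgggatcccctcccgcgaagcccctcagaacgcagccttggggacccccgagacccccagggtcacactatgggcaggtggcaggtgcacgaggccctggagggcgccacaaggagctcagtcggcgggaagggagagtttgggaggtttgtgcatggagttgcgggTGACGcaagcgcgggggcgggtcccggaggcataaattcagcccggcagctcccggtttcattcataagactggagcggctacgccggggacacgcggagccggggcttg
Fos: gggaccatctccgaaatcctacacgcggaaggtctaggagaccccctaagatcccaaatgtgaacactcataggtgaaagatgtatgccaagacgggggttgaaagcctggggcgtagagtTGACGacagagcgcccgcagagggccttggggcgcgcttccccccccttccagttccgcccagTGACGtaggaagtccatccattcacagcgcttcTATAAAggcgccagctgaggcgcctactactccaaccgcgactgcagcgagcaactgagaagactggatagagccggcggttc
Jun: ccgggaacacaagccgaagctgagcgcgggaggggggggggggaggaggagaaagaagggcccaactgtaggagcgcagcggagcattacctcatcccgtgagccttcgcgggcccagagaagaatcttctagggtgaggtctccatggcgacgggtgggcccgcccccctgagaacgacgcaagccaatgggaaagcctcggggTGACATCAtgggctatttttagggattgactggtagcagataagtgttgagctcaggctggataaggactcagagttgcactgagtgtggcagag

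The cyclic AMP response element (CRE) half-site TGACG, searched on both strands and contained in the full CRE, was found at bases 145 to 149 of Junb, 191 to 195 of Fosb, and both 122 to 126 and 185 to 189 of Fos. It was present in 20.8% of 32851 promoter windows. TATAAA, the TATA box, stood at bases 251 to 256 of Junb and 218 to 223 of Fos, and occurred in 13.6% of windows. The Junb match begins on the annotated start itself, base 251. The Junb gene position given below starts downstream of that base, at chr8:84978718. The variant AP-1 site TGACATCA stood at bases 206 to 213 of Jun and occurred in 3.62%. Windows were held for 8 of the 9 members. Among the other 4, Batf and Atf3 had a CRE half-site, and Jund and Fosl2 had none of the motifs. The Jund window, at chr8:70697489-70697788, lies upstream of the gene position given below and does not hold the sequence at that start. The windows of Atf3 (chr1:191183284-191183583) and Fosl2 (chr5:32136222-32136521) lie inside their genes and do not hold the outermost start either. The AP-1 site TGANTCA (7.81% of windows), the full CRE TGACGTCA (1.79%), the CArG box bound by serum response factor (1.63%) and the STAT-bound element TTCNNNGAA (8.3%) were each found in 0 of the 8. A match describes letters only.

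Levels of different genes were compared per kb of exon. By mean normalized units per kb over 12 libraries, Jun came first at 850, before Jund at 636 and Junb at 440. Fosl2 at 114 and Fos at 104 followed, then Atf3 at 49, Batf at 36.2, Fosl1 at 15.8 and Fosb at 9.9. Among these 9 genes the 3 JUN genes were therefore the most abundant messages per kb, and other bZIP genes were not ranked. The lowest of the 3, Junb, was above Fosl2 in 12 of 12 libraries with ranges that did not overlap. Every other pair of neighbours in this order had overlapping ranges, although Jun was above Jund and Batf above Fosl1 within each of the 12 libraries. Fosl2 was above Fos in 8 of 12 libraries, so their order is not settled by these data.

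Junb encodes a JUN protein that activates many AP-1 sites less strongly than c-Jun and, in mouse T helper 2 cells, takes part in interleukin-4 expression. The gene lies at chr8:84974484-84978718 on the minus strand of mm10 and has 3 exonic blocks in the GENCODE annotation. Junb stood at 710, 743 and 683 normalized units in the WT saline libraries and at 1758, 1342 and 1630 in the WT OVA libraries. It stood at 843, 997 and 812 units in Has2+/- saline and at 1006, 854 and 786 in Has2+/- OVA. All WT OVA libraries were far above every other library, whereas the Has2+/- groups overlapped each other and both lay above WT saline. In WT the log2 change was 1.14, a 2.20-fold difference. It was 1.05 without the 5 libraries of high squamous markers, a fit that leaves 1 WT saline library. Macrophage and monocyte markers moved with Junb in WT, where 6 of 9 were higher with OVA without overlap, against 16.2% of all genes. Among the 6 was Cd68, at 191, 238 and 220 units with saline and 682, 471 and 552 with OVA. Csf1r, also among them, stood at 1128, 1310 and 1192 units with saline and 1812, 1474 and 1409 with OVA. Marco overlapped, at 100, 148 and 116 units with saline and 139, 427 and 421 with OVA. In Has2+/- 4 of the 9 were higher without overlap, against 13.2% of all genes. None was at 0 in all libraries, and the part of these cells in the Junb values was not tested.

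In Has2+/- lungs, whose libraries did not serve to choose Junb, no change with OVA was detected. The means were 884 ± 99.3 units with saline and 882 ± 113 with OVA (SD, n = 3), and the log2 change was -0.01 with a 95% interval from -0.24 to 0.23 (limma, adjusted p = 0.99). The difference between the responses of the genotypes was not tested, since the WT side was used in the choice. Under saline Junb was 0.31 higher in Has2+/- than in WT on the log2 scale, and under OVA it was 0.84 lower (log2 difference -0.84), with no overlap in either case. Averaged over treatments the difference of -0.26 did not pass the test (limma, adjusted p = 0.156).

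**Figure D1:**
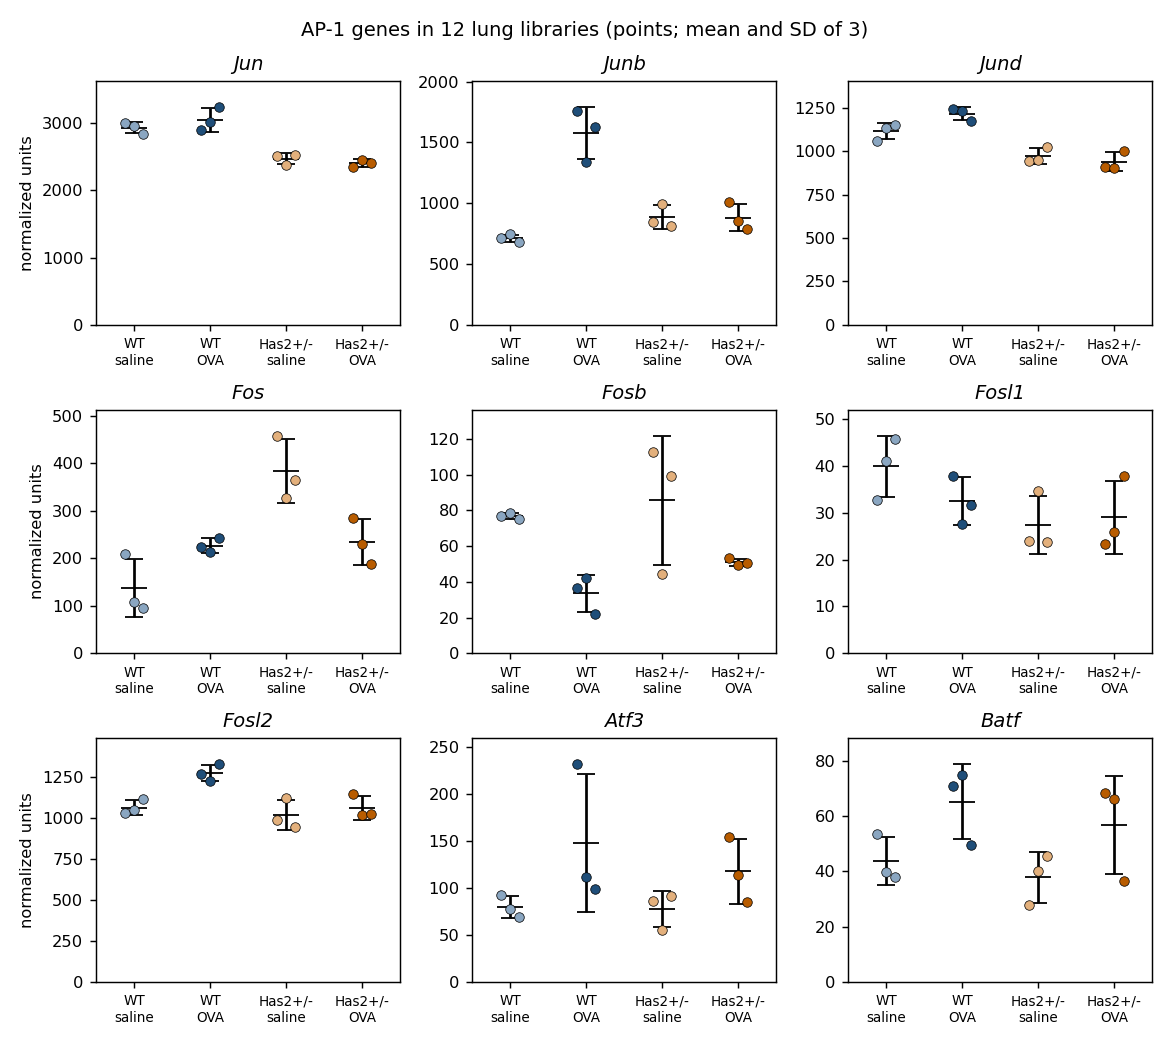
Normalized units of the 9 AP-1 genes (vertical axes, each from 0) in the 4 groups, with 1 point per library and bars for mean and SD of 3 libraries. Junb is between 1342 and 1758 units in WT OVA and between 683 and 1006 in the other groups, while Jun is lower in all 6 Has2+/- libraries than in all 6 WT libraries.

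Jun encodes c-Jun, the JUN protein activated by the JNK kinases, from a gene without introns at chr4:95049034-95052222 on the minus strand. Its values were 2992, 2953 and 2835 normalized units in WT saline, 2890, 3010 and 3235 in WT OVA, 2505, 2375 and 2522 in Has2+/- saline, and 2340, 2452 and 2411 in Has2+/- OVA. All 6 Has2+/- libraries were below all 6 WT libraries, and saline and OVA libraries overlapped within both genotypes. Averaged over treatments, Jun was lower in Has2+/- by a log2 difference of -0.29 (95% interval -0.38 to -0.21, limma adjusted p = 0.00547). With OVA it changed by 0.06 in WT and by -0.04 in Has2+/- on the log2 scale, the latter with adjusted p = 0.76 (limma).

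Jund encodes JunD, a broadly expressed JUN protein that slows proliferation of mouse fibroblasts. This intronless gene lies at chr8:70698949-70700616 on the plus strand. Its values were 1061, 1132 and 1148 units in WT saline, 1243, 1232 and 1174 in WT OVA, 946, 949 and 1026 in Has2+/- saline, and 910, 904 and 1002 in Has2+/- OVA. Again every Has2+/- library lay below every WT library. The log2 difference averaged over treatments was -0.28 (95% interval -0.38 to -0.19, limma adjusted p = 0.0129).

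Averaged over treatments, 2 of 9 members (Jun and Jund) were thus called lower in Has2+/-, against 0.195% of all genes tested called lower in this comparison and 0.421% called in either direction. All 6 Has2+/- libraries were below all 6 WT libraries in the same 2 members and in 0.379% of genes. No member was called higher. At an unadjusted p under 0.05, 5 of 9 members passed (Jun, Junb, Jund, Fos and Fosl2), against 13.2% of genes. The median difference of the 9 members was -0.22, and that of all genes 0.01.

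Base composition moved with this genotype difference, and also with the OVA change in Has2+/-. With genes ranked by transcript GC content into 10 bins, the median log2 difference between genotypes went from 0.0844 in the bin of lowest GC to -0.0718 in the bin of highest GC. For OVA against saline in Has2+/- the medians of these bins were 0.0923 and -0.067. Jun, with 55.5% GC, is in bin 9 and Jund, with 67.1%, in bin 10. With values centred within GC bins, chosen after seeing the data, the difference was -0.25 for Jun (limma, adjusted p = 0.0191) and -0.20 for Jund (limma, adjusted p = 0.0785). With limma's plain empirical Bayes step, without trend and robust settings, neither was called, at adjusted p = 0.0948 for Jun and 0.0956 for Jund. Over 21 alternatives the adjusted p ran from 0.00306 to 0.811 for Jun and from 0.00704 to 0.811 for Jund, while the log2 difference stayed between -0.31 and -0.25 for Jun and between -0.31 and -0.20 for Jund. Jund was also not called without Has2+/- OVA library 8 (limma, adjusted p = 0.0508). Without the 5 libraries of high squamous markers the differences were -0.26 for Jun and -0.27 for Jund. That fit leaves 1 library in each saline group, so these are values only.

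Summed per kb, the 3 JUN genes came to 1895 ± 28.7 units in WT saline, 2369 ± 90.5 in WT OVA, 1742 ± 20.3 in Has2+/- saline and 1699 ± 17.4 in Has2+/- OVA (SD, n = 3). Junb made up 16.3 ± 0.46% of that sum in WT saline and 28.9 ± 3% in WT OVA. In Has2+/- its share was 22.1 ± 2.5% with saline and 22.5 ± 2.7% with OVA. In WT OVA the share of Junb came close to the 30.8 ± 1.8% of Jund. These are shares of message and not of protein.

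Counts of overlapping genes on opposite strands can mix where counting ignores strand, and the strand setting of the counting is not stated. Junb overlaps Prdx2, which encodes a peroxiredoxin and ran from 378 to 465 units, with log2 changes of 0.07 in WT and 0.05 in Has2+/-. Prdx2 thus did not follow Junb. Jun overlaps Junos, at 27.9 to 68.6 units, and Jund overlaps Gm11175, at no more than 1.83 units. Fosl1 overlaps Ccdc85b, whose 116 to 180 units exceed those of Fosl1 in every library, so the Fosl1 values are uncertain.

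Fos encodes c-Fos, the prototype immediate early gene product, which binds DNA only with a JUN partner. The gene lies at chr12:85473890-85477273 on the plus strand and has 4 exonic blocks. Fos stood at 208, 108 and 95.8 normalized units in WT saline and at 224, 213 and 243 in WT OVA, a log2 change of 0.81 with no overlap. In Has2+/- it stood at 458, 327 and 364 units with saline and at 284, 230 and 188 with OVA. Has2+/- saline was therefore the highest group, above every library of the others, and the order of saline and OVA was opposite in the genotypes. The Has2+/- log2 change of -0.71 (95% interval -1.33 to -0.10) did not pass the test (limma, adjusted p = 0.196), although the libraries did not overlap, as for 11% of genes in that direction. Over 22 alternatives its adjusted p ran from 0.0285 to 0.683, and the lowest came without WT saline library 4, the WT saline library with the highest Fos.

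Under saline, the log2 difference of Fos between genotypes was 1.55, from 137 ± 61.6 units in WT to 383 ± 67.5 in Has2+/- (SD, n = 3), and under OVA it was 0.03. The average of 0.79 over treatments did not pass the test (limma, adjusted p = 0.131), but it did without WT saline library 4, at 0.96 with adjusted p = 0.00224 (limma; 0.00224 to 0.811 over 21 alternatives).

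Fosb encodes FosB and, by alternative splicing, a shorter form that lacks the transactivating end. The gene lies at chr7:19302696-19310051 on the minus strand. Fosb stood at 76.9, 78.8 and 75 normalized units in WT saline and at 36.5, 42.2 and 22.1 in WT OVA. In Has2+/- it stood at 113, 44.5 and 99.4 units with saline and at 53.3, 49.5 and 50.5 with OVA. WT OVA was the lowest group, below every other library, and Has2+/- saline was split, with library 11 below all Has2+/- OVA libraries. The log2 change was -1.22 in WT, and -0.63 in Has2+/- (95% interval -1.27 to 0.01, limma adjusted p = 0.268). The Has2+/- change was -0.38 without library 10 and -1.04 without library 11 (limma, adjusted p = 0.602 and 0.0539; 0.0539 to 0.602 over 22 alternatives).

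Heart muscle markers were lower with OVA in both genotypes, as were the group means of Fosb. The summed level of 6 cardiomyocyte markers, none of which was at 0 in all libraries, ran from 8657 to 10664 units in WT saline, from 3838 to 4145 in WT OVA, from 7551 to 10669 in Has2+/- saline and from 5213 to 6469 in Has2+/- OVA. Of the 6 markers, 2 were called lower in Has2+/- OVA (limma), against 0.952% of all genes. These calls were lost in 14 and 3 of 22 alternatives. Within Has2+/- saline the order of the sums was not that of Fosb. Library 10 had the highest Fosb (113) and the lowest sum (7551). Library 11, with 44.5 units of Fosb, had a sum of 8089, above every Has2+/- OVA library. Library 12, with 99.4 units of Fosb, had the highest sum (10669). Fat cell markers ran from 1477 to 4128, 393 to 531, 621 to 1716 and 500 to 666 units in the same order of groups. Fibroblast markers ran from 14878 to 15660, 8350 to 11321, 14260 to 15128 and 10247 to 12722 units in that order. The fibroblast, endothelial and erythroid sums were all lower with OVA without overlap in both genotypes. The part of these cells in the Fosb values was not tested. In whole-lung RNA, fewer cells of a type and less RNA per cell cannot be told apart.

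Fosl1 and Fosl2 encode Fra-1 and Fra-2, FOS proteins without the transactivating end of c-Fos, and forced expression of Fosl2 causes lung fibrosis in mice. Fosl2 stood at 1029, 1047 and 1113 normalized units in WT saline, 1268, 1228 and 1329 in WT OVA, 986, 1124 and 944 in Has2+/- saline, and 1146, 1020 and 1022 in Has2+/- OVA. The WT OVA libraries were above all others, by a log2 change of 0.26 over WT saline, and the remaining groups overlapped. Its Has2+/- change was 0.06 (limma, adjusted p = 0.686). Fosl1 was between 23.4 and 45.8 units, and every pair of groups overlapped. Its log2 change was -0.29 in WT and 0.07 in Has2+/- (limma, adjusted p = 0.911).

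**Figure D2:**
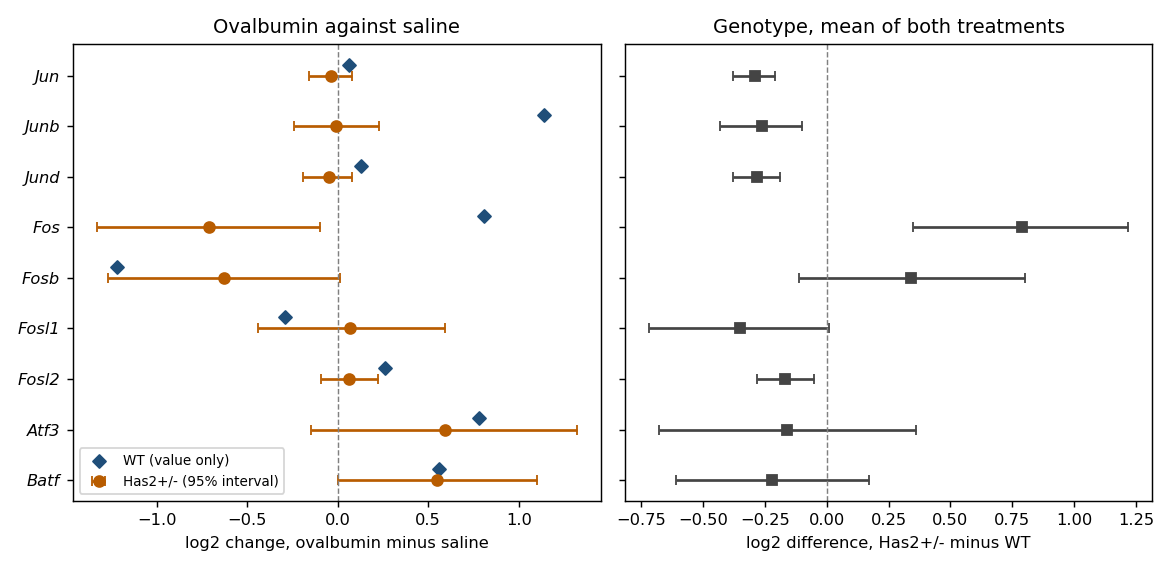
Left, log2 change of each AP-1 gene with ovalbumin in Has2+/- (circles, with 95% intervals from limma) and in WT (diamonds, value only, since WT values chose the members); right, log2 difference of Has2+/- from WT averaged over treatments with 95% intervals. Junb is at 1.14 in WT and -0.01 in Has2+/-, and on the right Jun and Jund lie near -0.29 and -0.28.

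Atf3 encodes a stress-induced bZIP protein that often represses its targets and, in mouse macrophages, limits inflammatory cytokine genes. The gene lies at chr1:191170296-191218039 on the minus strand. Atf3 stood at 92.1, 77.6 and 69.4 normalized units in WT saline, 232, 112 and 98.7 in WT OVA, 85.8, 55.5 and 91.3 in Has2+/- saline, and 154, 114 and 85 in Has2+/- OVA. Library 1 was highest, and OVA libraries were above saline libraries without overlap in WT but not in Has2+/-. The log2 change was 0.78 in WT and 0.59 in Has2+/- (95% interval -0.15 to 1.32, limma adjusted p = 0.371). The WT change was 0.40 without library 1, and the Has2+/- change was 0.37 without library 7 and 0.36 without library 11.

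Batf encodes a bZIP protein without a transactivating domain, which pairs with JUN proteins and works with IRF4 and IRF8 in lymphocytes and dendritic cells. The gene lies at chr12:85686669-85709087 on the plus strand. Batf stood at 53.7, 39.8 and 37.9 units in WT saline, 71, 75 and 49.6 in WT OVA, 27.7, 40.3 and 45.6 in Has2+/- saline, and 68.2, 66.1 and 36.5 in Has2+/- OVA. In each genotype 2 OVA libraries were above all saline libraries and the third was among them. The log2 change of 0.55 in Has2+/- did not pass the test (limma, adjusted p = 0.256), and that in WT was 0.56. The Has2+/- change was 0.84 without library 9 and 0.35 without library 10. The summed level of 10 T cell markers ran from 738 to 973 units in WT saline and 918 to 1276 in WT OVA. It ran from 799 to 995 units in Has2+/- saline and 952 to 1066 in Has2+/- OVA. Of the 10 markers, 1 was called higher in Has2+/- OVA (limma), against 1.85% of all genes, and none was at 0 in all libraries. That call was lost in 16 of 22 alternatives. The part of T cells in the Batf values was not tested.

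Over all 9 members, 0 were called in Has2+/- OVA against saline by limma, where 2.8% of all genes were called, 1.85% upward and 0.952% downward. Without adjustment, Fos and Batf (2 of 9) had a p under 0.05, against 19.3% of genes. In the authors' deposited table the adjusted p of the same comparison ran from 0.203 for Fos to 1, so 0 of 9 were below 0.05 there too. In WT, 5 of 9 members were higher without overlap (Junb, Jund, Fos, Fosl2 and Atf3) and Fosb was lower without overlap, against 16.2% and 17.6% of genes, counts from which nothing is read because that comparison served in the choice. Under saline, Junb and Fos were higher and Jun and Jund lower in Has2+/- without overlap (7.04% and 6.32% of genes), and under OVA Fosb was higher and Jun, Junb, Jund and Fosl2 lower (10.4% and 7.13%). These comparisons share libraries with the WT comparison and with each other.

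The other immediate early genes are a list of 17 tested genes outside AP-1. In Has2+/- OVA 0 were called higher and 2 lower, against 1.85% and 0.952% of all genes, with a list median of 0.04. At an unadjusted p under 0.05 (limma), 7 passed, against 19.3% of all genes. Egr1, a zinc finger factor switched on by the same signals as Fos, fell by 0.77 on the log2 scale (log2 change -0.77, limma adjusted p = 0.0446), from 1007, 736 and 775 units with saline to 538, 502 and 430 with OVA. In WT the Egr1 groups overlapped, at 517, 395 and 321 units with saline and 438, 398 and 475 with OVA, so for Egr1 as for Fos the Has2+/- saline libraries were the highest of all. Nr4a1, an orphan nuclear receptor, fell by 0.73 (limma, adjusted p = 0.04), from 677, 491 and 489 units to 303, 359 and 325. Both calls were lost without Has2+/- saline library 10, 11 or 12, among 13 of 22 alternatives for Egr1 and 11 of 22 for Nr4a1, with adjusted p from 0.0136 to 0.459 and from 0.0181 to 0.551. Library 10 had the highest value of Fos, Fosb, Egr1 and Nr4a1, and its squamous marker sum of 35987 units was also the highest. Library 12 had 364 units of Fos and 99.4 of Fosb with a squamous sum of 124. With squamous markers as a covariate in the fit, the calls of Egr1 and Nr4a1 were lost, as they were with GC centring. With that covariate the Has2+/- change was -0.55 for Fos and -0.95 for Fosb (limma, adjusted p = 0.471 and 0.167). The part of squamous tissue in these values was not tested.

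Between genotypes averaged over treatments, limma called 0 of these 17 genes higher and 3 lower, against 0.226% and 0.195% of all genes. At an unadjusted p under 0.05 (limma), 9 of 17 passed, against 13.2% of all genes. The 3 called genes are named after their values were seen. Csrnp1, a nuclear protein gene induced by AXIN1 signalling, was lower in Has2+/- by a log2 difference of -0.81 (limma, adjusted p = 0.00906; 0.00194 to 0.811 over alternatives). It stood at 106, 76.7 and 91.3 units in WT saline, 105, 148 and 169 in WT OVA, 65.2, 56.7 and 55.2 in Has2+/- saline and 69.2, 70.2 and 63.8 in Has2+/- OVA, so that the genotypes did not overlap. Ier2 and Ier5 were lower by smaller differences of -0.33 (limma, adjusted p = 0.0243) and -0.24 (limma, adjusted p = 0.0458), and were not called in 9 and 15 of 21 alternatives.

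**Figure D3:**
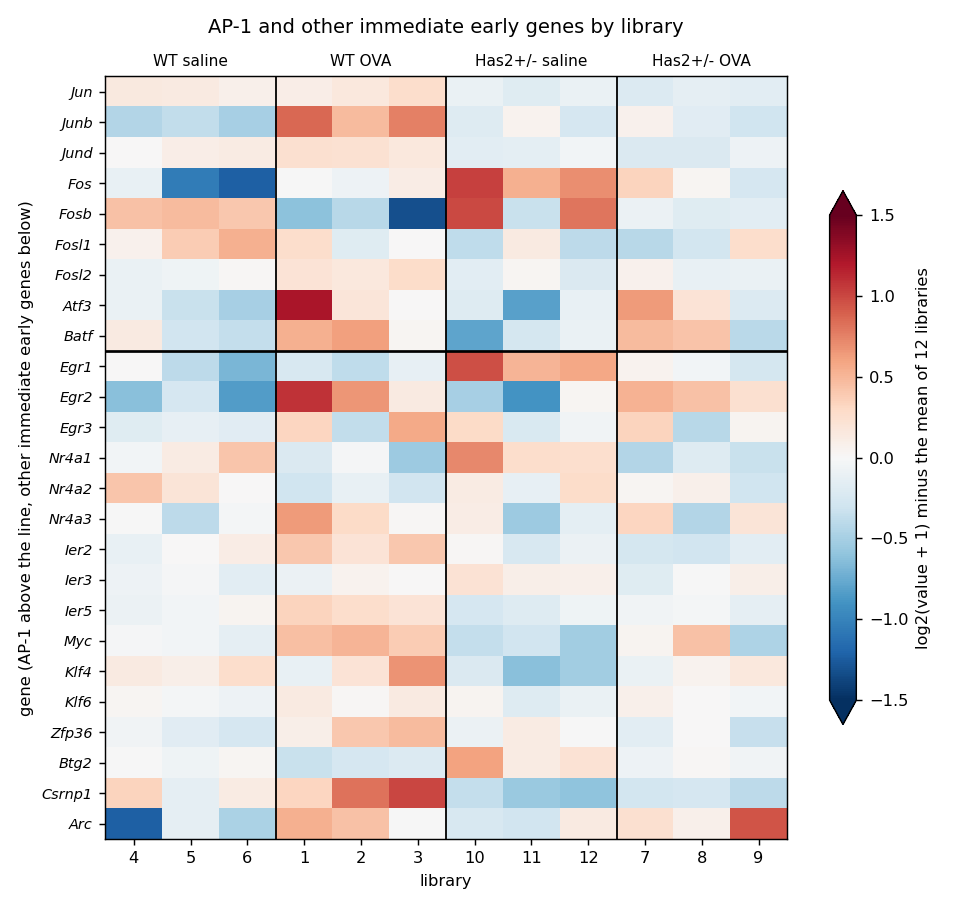
log2(value + 1) of AP-1 genes (above the line) and other immediate early genes (below) in each library, minus the gene's mean over 12 libraries, with libraries in columns by group. Junb is high in WT OVA libraries 1 to 3, whereas Fos and Egr1 are high in Has2+/- saline libraries 10 to 12.

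Other bZIP partners numbered 26 tested genes. In Has2+/- OVA 1 was called higher and 0 lower, against 1.85% and 0.952% of all genes, with a median of 0.01. At an unadjusted p under 0.05 (limma), 7 passed in Has2+/- OVA, against 19.3% of all genes, and 10 between genotypes, against 13.2%. Batf2, a BATF relative induced by interferon, rose from 24.7, 18.9 and 26 units with saline to 68.9, 42.9 and 56 with OVA, a log2 change of 1.22 (limma, adjusted p = 0.0368; 0.00858 to 0.728 over alternatives, 12 of 22 of which did not call it). In WT it stood at 37.2, 32.2 and 26.7 units with saline and 123, 62.7 and 48.5 with OVA, a log2 change of 1.16 given without a test. Averaged over treatments, Maff (-0.41, limma adjusted p = 0.0243), a small MAF protein without a transactivating domain, and Cebpb (-0.36, limma adjusted p = 0.0235), a factor of macrophages and the acute phase, were lower in Has2+/-, each lost in 9 of 21 alternatives and named after their values were seen.

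Upstream of AP-1, the MAP kinase cascade had 1 of 26 tested genes higher and 0 lower in Has2+/- OVA, against 1.85% and 0.952% of all genes. The list median was -0.04, and 7 genes were at an unadjusted p under 0.05 (limma), against 19.3% of all genes. The called gene was Rps6ka3, the ERK-activated kinase RSK2, which rose from 691, 716 and 731 units to 821, 956 and 876. Its log2 change was 0.31 (limma, adjusted p = 0.0359, lost in 11 of 22 alternatives). The MAP kinase phosphatases, which switch the cascade off, had 0 of 11 called by limma and 3 at an unadjusted p under 0.05, against 19.3% of all genes. Between genotypes 0 of 26 and 0 of 11 were called by limma, with 6 and 1 at an unadjusted p under 0.05, against 13.2% of all genes.

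Textbook AP-1 target genes had 2 of 27 tested genes higher and 0 lower in Has2+/- OVA, against 1.85% and 0.952% of all genes. Their median change was 0.34 against 0.01 for all genes. At an unadjusted p under 0.05 (limma), 13 of 27 passed, against 19.3% of all genes. Ccl2, the monocyte chemoattractant, rose from 0.667, 0.583 and 3.33 units with saline to 46.2, 40 and 9.92 with OVA, a log2 change of 3.62 on the log2(value + 1) scale of the fit (limma, adjusted p = 0.00665). Mmp3, the matrix protease stromelysin-1, rose from 77, 88.2 and 94.2 units to 228, 180 and 126, a log2 change of 1.00 (limma, adjusted p = 0.0124). The libraries of both genes did not overlap between treatments. In WT, Ccl2 stood at 6.5, 6.42 and 2.33 units with saline and 65.3, 38.1 and 55.2 with OVA, and Mmp3 at 114, 94.2 and 109 and at 166, 135 and 184. Both calls were lost in 3 of 22 alternatives, among them leaving out library 10, with adjusted p up to 0.68 for Ccl2 and 0.716 for Mmp3.

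Macrophage and monocyte marker sums were also higher with OVA in Has2+/-, from 22011 to 23613 units with saline to 23819 to 27682 with OVA. Of the 9 markers, 2 were called higher (limma), against 1.85% of all genes, and none was at 0 in all libraries. These calls were lost in 16 and 1 of 22 alternatives. Within Has2+/- OVA the sums, made up mostly of Lyz2, ran opposite to these targets. Library 9 had the highest sum (27682) and the lowest Ccl2 (9.92) and Mmp3 (126). Library 7 had the lowest sum (23819) and the highest Ccl2 (46.2) and Mmp3 (228). Lyz2, 24726 units of the sum in library 9, overlapped between saline (19622 to 21053) and OVA (19622 to 24726). Cd68 (553, 384 and 394 units in libraries 7 to 9) and Csf1r (1630, 1375 and 1281) were highest in library 7, as Ccl2 and Mmp3 were. Marco was highest in library 8 (106, 161 and 96.2 units). Of the remaining markers, all but Lyz2 were highest in library 7. The part of macrophages and monocytes in the Ccl2 and Mmp3 values was not tested. Between genotypes, 1 of 27 targets passed the test upward and 1 downward, against 0.226% and 0.195% of all genes. At an unadjusted p under 0.05 (limma), 5 passed, against 13.2% of all genes. The called targets are named after their values were seen. Ptgs2, the inducible cyclooxygenase, was higher in Has2+/- by 0.89 (limma, adjusted p = 0.0159, lost in 6 of 21 alternatives, among them leaving out library 4, 8, 11 or 12), with 33.2, 44.8 and 39.4 units in WT saline, 42.3, 42.6 and 42.2 in WT OVA, 51, 70.4 and 80.7 in Has2+/- saline and 114, 90.5 and 64.2 in Has2+/- OVA. No Has2+/- library overlapped a WT library for Ptgs2, in the opposite direction to Jun. Cdkn1a, a cell cycle inhibitor, was lower by a log2 difference of -0.52 (limma, adjusted p = 0.0314, lost in 12 of 21 alternatives).

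BATF partners and lymphocyte targets had 1 of 11 tested genes higher and 2 lower in Has2+/- OVA, against 1.85% and 0.952% of all genes. The list median was 0.71, and 8 of 11 were at an unadjusted p under 0.05 (limma), against 19.3% of all genes. Il1rl1, the interleukin-33 receptor, rose from 43.8, 38.8 and 46.8 units to 66.8, 85.9 and 78.2, a log2 change of 0.82 (limma, adjusted p = 0.0227). Bcl6, a transcriptional repressor required for follicular helper T cells and germinal centres, fell by 0.34 on the log2 scale (log2 change -0.34, limma adjusted p = 0.02). None of the 11 was called between genotypes by limma, and 3 were at an unadjusted p under 0.05, against 13.2% of all genes. The calls of Il1rl1 and Bcl6 were lost in 6 and 7 of 22 alternatives.

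Heat shock genes, a stress set outside AP-1, had 0 of 7 called by limma in Has2+/- OVA, with a median of 0.43, and 0 of 7 between genotypes. At an unadjusted p under 0.05 (limma), 4 passed in Has2+/- OVA, against 19.3% of all genes, and 2 between genotypes, against 13.2%. Across the 7 lists 125 genes were tested in Has2+/- OVA against saline, of which 5 rose and 4 fell, against 1.85% and 0.952% of all genes. Between genotypes the same genes gave 1 call upward and 6 downward, against 0.226% and 0.195% of all genes. With values centred within GC bins, the downward calls of Maff, Cebpb, Cdkn1a, Ier2 and Ier5 were lost. Those of Csrnp1, downward, and Ptgs2, upward, were kept under that setting.

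**Figure D4:**
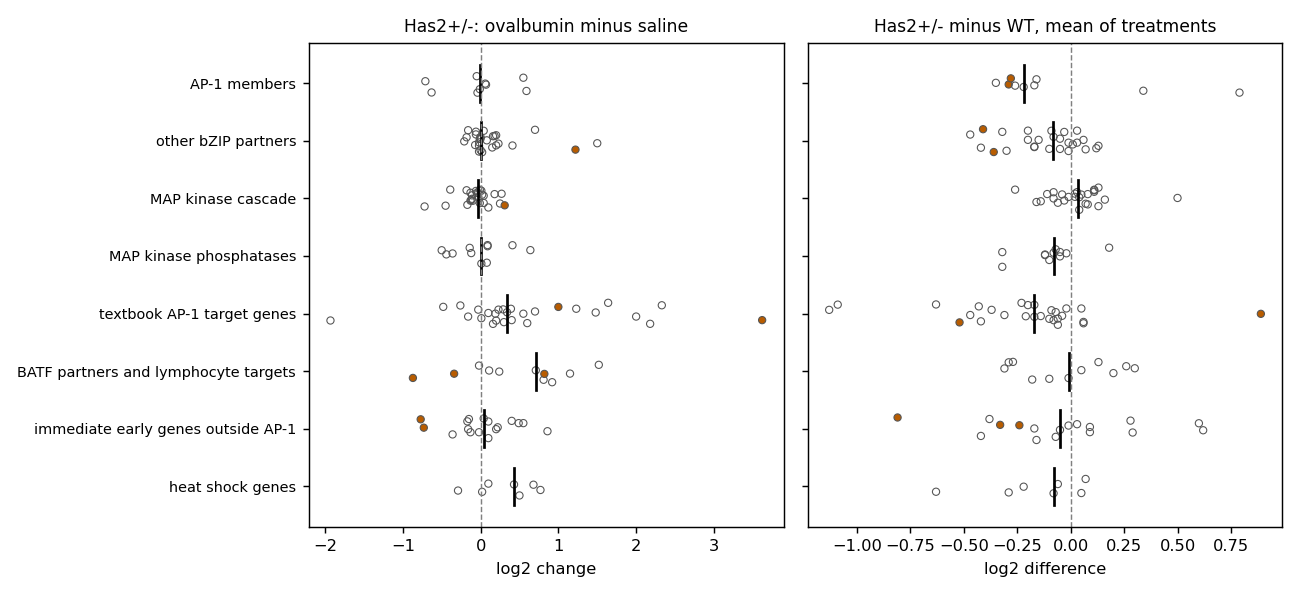
Each point is a tested gene of the named list, placed by its log2 change in Has2+/- OVA against saline (left) or its log2 difference between genotypes averaged over treatments (right), with short vertical lines for list medians and filled points for genes past an adjusted p of 0.05. Ccl2 at 3.62 stands farthest right among the AP-1 targets on the left, and Jun and Jund are the filled AP-1 points on the right.

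By likeness of pattern over 12 libraries, measured as the root mean square difference of centred log2 values among 14382 genes with a mean of at least 10 units, the 5 genes most like Junb were Ccdc86 (0.152), Spi1 (0.167), Gpr132 (0.180), Ninj1 (0.187) and Mxd1 (0.188). Spi1, which encodes a factor that defines myeloid and B cells, stood at 292, 374 and 276 units in WT saline, 666, 604 and 560 in WT OVA, 316, 397 and 370 in Has2+/- saline and 493, 419 and 346 in Has2+/- OVA. Ccdc86, a nucleolar protein gene, was at 129, 122 and 123 units in WT saline and 254, 202 and 230 in WT OVA, and between 124 and 164 in Has2+/-. The summed macrophage and monocyte markers ran from 18990 to 21194 units in WT saline and from 20455 to 24772 in WT OVA, a sum made up mostly of Lyz2. The neutrophil sums ran from 877 to 2086 and from 947 to 1593. Of the 8 neutrophil markers 1 was higher without overlap, against 16.2% of all genes.

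The 5 genes most like Fosb were Mapk10 (0.291), Ryr2 (0.319), Tnnc1 (0.323), Mterf2 (0.330) and Slc1a2 (0.337), at larger distances than those of Junb. Ryr2, the calcium release channel of heart muscle, and Tnnc1, a heart and slow muscle troponin, are heart muscle genes. Tnnc1 stood at 63.2, 82.9 and 82.6 units in WT saline, 35.2, 29.4 and 24.9 in WT OVA, 66.8, 65.3 and 90.8 in Has2+/- saline and 57.2, 46.6 and 53.9 in Has2+/- OVA. Mapk10, which encodes the JNK3 kinase, is itself on the MAP kinase list and had a log2 change of -0.72 in Has2+/- OVA that did not pass the test (limma, adjusted p = 0.0766). The likeness describes these 12 libraries, which share their normalization.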

How the data were processed

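Lung RNA of 12 libraries in 4 groups of 3 was analysed from 1 deposited table. Per the labels' protocols, 500 ng of total RNA went into directional libraries, and both rRNA depletion and poly-A purification are named; sequencing used a NextSeq500. The submitters' processing notes name the build mm10, while aligner, counter and strand setting are not stated. The deposited signal values are normalized by the authors. Their sorted columns are identical, with values at multiples of 1/12 (tolerance 1e-06) and a sum of 6852201 per library, which is what quantile normalization of gene counts gives. Another 12 columns of transformed values were not used. The score columns are signed fold changes and the p-value columns are FDR-corrected p-values of the authors' EDGE test, per the file headers. Depth is unknown, so no counting interval is given.

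limma 3.58.1 in R 4.3.3 was fitted to log2(value + 1) of 19017 genes with a group mean of at least 1, over all 12 libraries with trend and robust empirical Bayes (8 residual degrees of freedom, median prior 8.40), after tests on simulated data. The design foresaw this test for normalized values. Tests were two-sided, with Benjamini-Hochberg adjustment over all genes and a threshold of 0.05. The members and lists were chosen with earlier results of these data known. Junb and Fosb were singled out on the WT comparison, so that comparison, genotype within a treatment and the difference between responses are values only. Named genes are all members, up to 4 called genes of a list by size of change in Has2+/- OVA against saline (every one where 5 or fewer passed), the 5 genes most like Junb and Fosb, and defining markers; 1 called gene of the lists is counted but not reported here. Positions and exon lengths came from GENCODE M21, and promoter windows from RefSeq on GRCm38.p6. Transcript GC content was found for 99.8% of tested genes. Columns were assigned to groups by genotype and treatment codes. Alternatives covered pseudocount, filter, empirical Bayes settings, rescaling, libraries fitted, each library left out, and, chosen after seeing the data, GC centring, squamous markers as a covariate, and leaving out the 5 squamous-high libraries.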

Additional observations from a re-analysis of the deposited data

Results flagged for a closer look

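Fos drew attention because its ovalbumin and saline libraries were in opposite order in the genotypes: every OVA library was above every saline library in WT (log2 change 0.81), and below every one in Has2+/- (log2 change -0.71). The difference between these changes was not tested, and the Has2+/- change itself did not pass the test.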

How the results depend on the processing

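For Has2+/- OVA against saline, the count of 0 called members was 0 to 1 when 1 library was left out, the exception being Fos without WT saline library 4, and 0 under every other alternative run. For genotype averaged over treatments, the count of 2 members was 0 with plain empirical Bayes, 1 with GC centring, 0 without the 5 squamous-high libraries, and 1 to 3 when 1 library was left out. Without library 8 it was 1, without library 4 it was 3 by the addition of Fos, and without library 7 it was 3 by the addition of Junb (limma, adjusted p = 0.0498; 0.0498 to 0.811 over alternatives). Leaving out the 5 libraries left 1 library in each saline group, whose spread is then assumed to be that of the others. The count of 9 called pathway genes in Has2+/- OVA was 0 with plain empirical Bayes, 2 with the squamous covariate, 0 without the 5 libraries, and 0 to 13 when 1 library was left out, with 4 without library 7, 3 without library 8, 0 without library 10 and 3 without library 11. With GC centring the count of called pathway genes was 6. The cause was not tested. Jun and Jund stayed lower under all 21 alternatives of the genotype comparison. Rescaling by medians of ratios left the median of all genes at 0.00 in Has2+/- OVA. In WT the Junb change stayed between 1.05 and 1.25 and the Fosb change between -1.57 and -0.95. No paired analysis was possible because the columns carry library numbers that match no title.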
